A study of Mus musculus with 33 samples.

Results

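Otx1, Otx2, Emx1, Emx2, En1, En2, Gbx1, Gbx2, Lmx1a and Lmx1b are 10 homeobox transcription factor genes, in 5 pairs of paralogs, that mark regions of the embryonic brain. They were picked by name from the 55401 genes of the deposited count table, with earlier results of these data known. All 10 had a row there, and all 10 were among the 20073 genes that passed the filter on low counts and were tested. The tissue is labelled as frontal bone of the calvaria (the skull roof) of mouse embryos, and polyadenylated RNA was sequenced in 33 libraries. There were 3 libraries at each of 11 stages, named by days of gestation. From E8.5 to E12.5 there were 9 evenly spaced stages, and E13.5 and E14.5 followed. The labels used here give the tissue and the stage, and no strain, genotype or treatment. Nothing in them ties the libraries of 1 stage to different embryos or to pools, so the p-values measure the spread between these libraries, which may be technical.

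In vertebrate embryos Otx2 and its paralog Otx1 are expressed in the forebrain and midbrain, and Gbx2 is expressed in the anterior hindbrain. Otx2 and Gbx2 repress each other, and the line where they meet becomes the midbrain-hindbrain boundary, a signalling centre that makes Fgf8 and Wnt1. En1 and En2 are expressed on both sides of this boundary. Emx1 and Emx2 pattern the dorsal telencephalon, the future cerebral cortex, while Lmx1a and Lmx1b act in the dorsal midline, at the boundary and in the precursors of dopaminergic neurons. In mouse, En1 and Lmx1b are known from cranial mesenchyme as well, the tissue that lies over the brain and gives rise to the frontal bone. The libraries are bulk RNA, so fewer cells of a type and less RNA per cell cannot be told apart in any value given here.

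In the mouse genome build GRCm38, with positions from the GENCODE M21 annotation, the 2 genes of each pair lie on different chromosomes. Otx1 (ENSMUSG00000005917) is at chr11:21994764-22002897 and Otx2 (ENSMUSG00000021848) at chr14:48657677-48673819, both on the minus strand. Emx1 (ENSMUSG00000033726) is at chr6:85187438-85204462 and Emx2 (ENSMUSG00000043969) at chr19:59458372-59465357, both on the plus strand. En1 (ENSMUSG00000058665) is at chr1:120602418-120607992 and En2 (ENSMUSG00000039095) at chr5:28165694-28172166, both on the plus strand. Gbx1 (ENSMUSG00000067724) is at chr5:24502757-24527202 and Gbx2 (ENSMUSG00000034486) at chr1:89927956-89931179, both on the minus strand. Lmx1a (ENSMUSG00000026686) is at chr1:167689237-167848741 on the plus strand and Lmx1b (ENSMUSG00000038765) at chr2:33560965-33640511 on the minus strand.

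The libraries held 14516518 to 19964404 counts (median 17081223). Levels are CPM, counts relative to the library total after TMM scaling, which corrects that total for composition, and are given as the mean ± SD of 3 libraries. Libraries of a stage correlated across genes at a Pearson r of at least 0.988 at 9 stages, while the lowest r was 0.965 at E12 and 0.975 at E13.5. The libraries labelled E12 stood apart from their neighbours. Of the 20073 genes tested, 13816 passed at E12 against E11.5 and 12645 at E12.5 against E12, while E12.5 against E11, which passes over both stages, had 1323 higher and 1393 lower. The labelled bone showed in its markers mainly at late stages. Runx2, the master regulator of osteoblasts, averaged 45.02 CPM at E14.5 and 0.575 CPM at E8.5, and the bone collagen gene Col1a1 averaged 1880.2 CPM at E14.5 and 18.0 CPM at E8.5. Neural progenitor genes were present throughout. The 8 genes of the neural tube in general (Sox1, Sox2, Sox3, Nes, Pax6, Hes5, Fabp7 and Msi1) summed to 949.9 ± 11.53 CPM at E8.5, 2247 ± 20.5 CPM at E10.5 and 272.8 ± 8.77 CPM at E14.5.

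Every one of the 10 genes changed over the 11 stages by edgeR's quasi-likelihood F-test, with Benjamini-Hochberg adjusted p-values between 7.64e-27 for En2 and 9.99e-13 for Gbx1. The background is high in this series: 95.3% of all genes tested passed the same test. The genes did not share one course. By CPM, En1, En2 and Lmx1b had their highest mean at E8.5, Otx2 at E9, Otx1 and Lmx1a at E10.5, Gbx1 and Gbx2 at E11.5, Emx1 at E12 and Emx2 at E12.5. The highest stage of some genes depended on the scaling. TPM are counts per exonic length, scaled to the same sum in every library. By TPM, En2 was highest at E10.5 (61.2, against 54.5 at E8.5), and so was Otx2 (137.0, against 130.4 at E9). Lmx1a was then highest at E11 (26.0, against 25.3 at E10.5) and Emx1 at E12.5 (145.7, against 99.9 at E12).

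**Figure D1:**
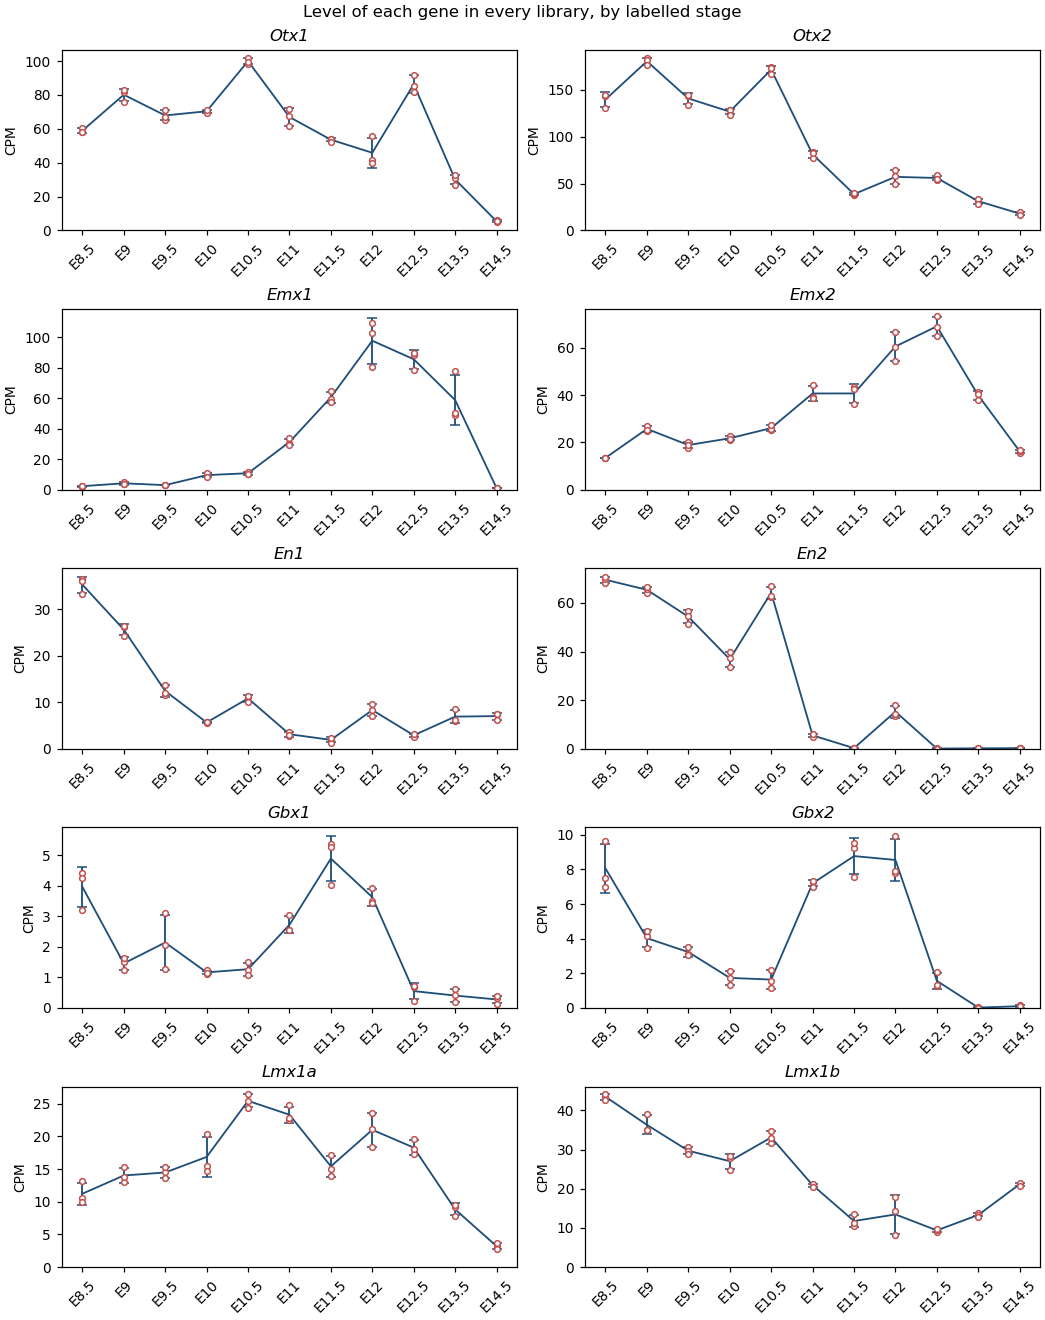
Level of each of the 10 genes (CPM, vertical axis from 0) in every library by labelled stage; open points are libraries, the line joins the stage means and bars are 1 SD of 3 libraries. En2 lies between 62.5 and 67.1 CPM at E10.5, near 0 at E11.5, between 13.53 and 18.1 CPM at E12 and near 0 again from E12.5, while Emx1 lies between 80.4 and 109 CPM at E12.

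Otx2, which is needed to form the forebrain and midbrain, was the most abundant of the 10 genes per exonic length at every stage from E8.5 to E11. Its level was 131, 144 and 145 CPM in the libraries of E8.5, 183, 181 and 176 CPM at E9 and 175, 167 and 173 CPM at E10.5. It then dropped at consecutive stages, to 84.0, 76.8 and 82.5 CPM at E11 and to 37.4, 39.1 and 39.6 CPM at E11.5, with no overlap between neighbouring stages. The fall was 1.08 ± 0.08 on the log2 scale (SE, adjusted p = 7.48e-12) at E11 against E10.5 and 1.07 ± 0.08 (adjusted p = 3.74e-11) at E11.5 against E11, by edgeR's quasi-likelihood test. Otx2 was lowest at E14.5, with 17.6, 19.4 and 16.6 CPM.

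Otx1, which is known for its part in cortical development, fell and was high again at E12.5. The libraries of E10.5 had 98.6, 102 and 99.6 CPM. Means were 66.9 CPM at E11, 53.6 CPM at E11.5 and 45.8 CPM at E12, before 85.3, 81.7 and 92.0 CPM at E12.5 and 6.04, 4.76 and 5.26 CPM in the E14.5 libraries. The fall at E14.5 against E12.5 was 4.01 ± 0.11 on the log2 scale (adjusted p = 2.34e-22). Per exonic length the ratio of Otx1 to Otx2 was 0.329 ± 0.0173 at E8.5 and 0.454 ± 0.0183 at E10.5 (SD, n = 3 each). It was above 1 at E11.5, with 1.08 ± 0.0483, below it in the E12 libraries, with 0.625 ± 0.0751, and above it again at E12.5, with 1.21 ± 0.114. The E14.5 libraries had 0.235 ± 0.0392. Otx1 therefore exceeded Otx2 in every library at E11.5 and E12.5 and in no library at the other 9 stages.

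Emx1 and Emx2, the genes of the dorsal telencephalon, were low at the early stages. Emx1 had 1.96, 2.41 and 2.28 CPM at E8.5 and 10.1, 11.8 and 10.3 CPM at E10.5, and reached 109, 103 and 80.4 CPM at E12. It was still at 48.6, 49.9 and 77.5 CPM at E13.5, where the third library stood above the others, and was at 1.02, 1.07 and 0.915 CPM at E14.5. The step to E14.5 was thus the steepest of Emx1: it fell by 5.87 ± 0.20 on the log2 scale against E13.5 (adjusted p = 2.59e-20). Emx2 was less extreme, with 13.47, 13.55 and 13.3 CPM at E8.5. It reached 68.8, 73.4 and 65.1 CPM at E12.5 and was at 15.6, 16.4 and 16.6 CPM at E14.5. The ratio of Emx1 to Emx2 per exonic length was 0.227 ± 0.0235 at E8.5, 2.06 ± 0.328 at E11.5, 1.71 ± 0.220 in the E12.5 libraries and 0.0850 ± 0.00782 in those of E14.5. Emx2 was thus the more abundant of the pair in every library up to E10.5 and at E14.5, and Emx1 in every library from E11.5 to E13.5.

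En1 and En2, the engrailed genes of the midbrain-hindbrain boundary, already differed in level at E8.5 and then took different courses. En1 fell early, to 5.66, 5.55 and 5.72 CPM at E10, against 36.5, 36.0 and 33.3 CPM at E8.5. En2 stayed high longer, with 67.1, 62.5 and 62.9 CPM at E10.5, against 68.2, 69.9 and 70.5 CPM at E8.5, though E10 libraries had 33.5, 37.3 and 39.6 CPM. It was then at 5.59, 4.71 and 6.15 CPM in the E11 libraries and at 0.116, 0.151 and 0.473 CPM in the E11.5 libraries, a fall of 3.54 ± 0.16 on the log2 scale at E11 against E10.5 (adjusted p = 1.48e-16). At E12 En2 was back at 13.53, 14.2 and 18.1 CPM, and at E12.5 it was at 0, 0.208 and 0 CPM. All 3 libraries of E12 were therefore above all libraries of E11, E11.5, E12.5, E13.5 and E14.5. At E12.5 En2 had 4 counts in 3 libraries, all in replicate b, against 3640 counts at E10.5. The pooled level at E10.5 was 858.7 times that at E12.5, with a 95% interval of 335 to 3153 that covers counting error only.

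En1 fell at the same steps to E11 and E11.5, by 1.79 ± 0.16 and 0.72 ± 0.19 on the log2 scale. It was lowest at E11.5, with 2.14, 1.31 and 2.26 CPM. The E12 libraries then had 7.08, 8.27 and 9.60 CPM of En1, and the E12.5 libraries 3.04, 2.54 and 3.08 CPM. At E13.5 the level was 5.91, 6.22 and 8.58 CPM, close to the 7.53, 7.38 and 6.13 CPM of the E14.5 libraries. En1 rose by 1.28 ± 0.17 on the log2 scale at E14.5 against E12.5 (adjusted p = 1.18e-07), a 2.43-fold change with no overlap of the libraries. En2 had 14 counts at E14.5 and 4 at E12.5, and did not pass (adjusted p = 0.0655). That result rests on 1 library: without replicate b of E12.5, which held all 4 counts, the adjusted p was 0.00136. En1 had 413 counts at E14.5 against those 14 of En2, while at E8.5 En2 had 3164 counts and En1 1598.

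Gbx1 and Gbx2 had 2 separate periods of higher level, whose tissue source was not tested. They were the least abundant pair per exonic length at 9 of the 11 stages, all but E11 and E11.5. The libraries of E8.5 had 7.51, 9.65 and 7.01 CPM of Gbx2, those of E10.5 1.57, 2.21 and 1.13 CPM, and those of E11.5 7.57, 9.22 and 9.52 CPM. The E12 libraries followed with 7.78, 9.93 and 7.93 CPM and the E12.5 libraries with 1.26, 1.35 and 2.07 CPM, and the 3 libraries of E13.5 together held 1 count. The rise at E11 against E10.5 was 2.13 ± 0.23 on the log2 scale (adjusted p = 1.33e-08) and came at the same step as the fall of En2 and Otx2. Between E13.5 and E12.5 the pooled level fell to 1 count against 83. The ratio of E13.5 to E12.5 was 0.0120, with a counting interval of 0.000301 to 0.0690. The ratio of Otx2 to Gbx2 per exonic length was 2.29 ± 0.222 at E11.5 and 58.5 ± 20.1 at E10.5, with Otx2 lower and Gbx2 higher at E11.5.

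Gbx1, whose known expression in mouse includes the anterior hindbrain and spinal cord, had both periods too, at lower counts. The libraries of E8.5 had 4.42, 4.26 and 3.21 CPM of Gbx1, those of E10.5 1.23, 1.49 and 1.08 CPM, those of E11.5 5.38, 4.03 and 5.26 CPM and those of E14.5 0.321, 0.374 and 0.137 CPM. Its highest stage held 273 counts in 3 libraries, so small steps of Gbx1 are at the limit of this depth. The fall at E10 against E9.5, 0.89 ± 0.30 on the log2 scale (adjusted p = 0.0285), no longer passed without replicate c of E9.5 (adjusted p = 0.283). It was likewise lost without replicate a of E9.5 and without each library of E10.

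The window before the start of Gbx2 is shown because another gene runs through it. The RNA gene D130058E05Rik starts inside Gbx2 on the opposite strand and shares 946 exonic bases with it, 43.5% of the exonic length of Gbx2. Its exons cover all 247 bases printed here, and capitals mark the covered bases. The sequence is from RefSeq, build GRCm38.p6, on the minus strand at chr1:89931180-89931426.
Gbx2: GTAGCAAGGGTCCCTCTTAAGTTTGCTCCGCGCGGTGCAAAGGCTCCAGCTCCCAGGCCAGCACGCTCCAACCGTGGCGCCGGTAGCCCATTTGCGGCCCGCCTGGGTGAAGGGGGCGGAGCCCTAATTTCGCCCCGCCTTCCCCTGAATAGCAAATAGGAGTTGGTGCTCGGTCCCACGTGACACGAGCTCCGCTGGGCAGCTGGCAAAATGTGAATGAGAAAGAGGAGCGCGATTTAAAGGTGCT

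The strand setting of the counting is not given in the sources used here. How reads from the bases shared by Gbx2 and D130058E05Rik were counted is thus not known. The level of Gbx2, its rank per exonic length and its ratio to Otx2 may be affected. The values of the 2 genes differed in the second period. D130058E05Rik was at 4.78 ± 0.238 CPM at E8.5, 0.872 ± 0.168 CPM at E11.5 and 0.137 ± 0.165 CPM at E14.5, so it had the first high level of Gbx2 and not the second. Gbx1, which has no annotated neighbour that overlaps it, had both. These values do not show how the shared bases were counted, and their part in either period of Gbx2 was not tested.

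Lmx1a, a gene of the roof plate and cortical hem, had 10.6, 9.93 and 13.1 CPM in the libraries of E8.5, 25.5, 24.4 and 26.4 CPM in those of E10.5 and 3.21, 2.73 and 3.66 CPM in those of E14.5. Lmx1b, which is needed at the midbrain-hindbrain boundary and in limb and cranial mesenchyme of the mouse, was highest at E8.5. The E8.5 libraries had 43.4, 44.3 and 42.8 CPM, the E12.5 libraries 9.06, 9.39 and 9.66 CPM, and the E14.5 libraries 21.3, 21.5 and 20.7 CPM. Its level at E14.5 was 2.26-fold that at E12.5, a rise of 1.17 ± 0.15 on the log2 scale (adjusted p = 5.19e-08), with no overlap. Within E12 the libraries of Lmx1b spread widely, at 8.09, 14.4 and 17.8 CPM, and the fall at E12.5 against E12 (adjusted p = 0.00284) did not pass without replicate c of E12 (adjusted p = 0.185) or with library totals alone as the scaling (adjusted p = 0.139). Per exonic length, Lmx1a over Lmx1b was 0.379 ± 0.0636 at E8.5, 2.86 ± 0.0945 in the E12.5 libraries and 0.222 ± 0.0365 in those of E14.5.

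The window before the RefSeq start of Lmx1b is shown because it holds an exon of a neighbour that runs in the other direction. Capitals mark the 156 of 250 bases that lie in an exon of the RNA gene C130021I20Rik, which lies on the plus strand and does not overlap Lmx1b itself in the annotation. The sequence is from RefSeq, build GRCm38.p6, on the minus strand at chr2:33641099-33641348.
Lmx1b: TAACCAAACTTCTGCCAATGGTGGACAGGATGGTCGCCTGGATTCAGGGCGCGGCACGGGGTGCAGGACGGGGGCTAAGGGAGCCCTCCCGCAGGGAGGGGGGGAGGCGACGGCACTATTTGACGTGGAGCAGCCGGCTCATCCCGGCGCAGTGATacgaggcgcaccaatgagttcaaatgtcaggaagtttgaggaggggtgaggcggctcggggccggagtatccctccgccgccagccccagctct

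C130021I20Rik was at 25.5 ± 1.51 CPM at E8.5, 17.6 ± 0.409 CPM at E12.5 and 44.8 ± 0.746 CPM at E14.5. Both genes were thus lowest at E12.5 and higher at E14.5, but C130021I20Rik ended above its first level and Lmx1b below it. Of the other genes, Emx2 shares 264 exonic bases, 8.79% of its exonic length, with the antisense gene Emx2os. Emx2os was at 17.7 ± 0.930 CPM at E14.5 and 2.77 ± 0.623 CPM at E8.5, beside 16.2 ± 0.516 CPM and 13.4 ± 0.150 CPM of Emx2. Otx2 shares 154 exonic bases with Otx2os1, which did not exceed 5.49 ± 0.276 CPM at any stage.

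**Figure D2:**
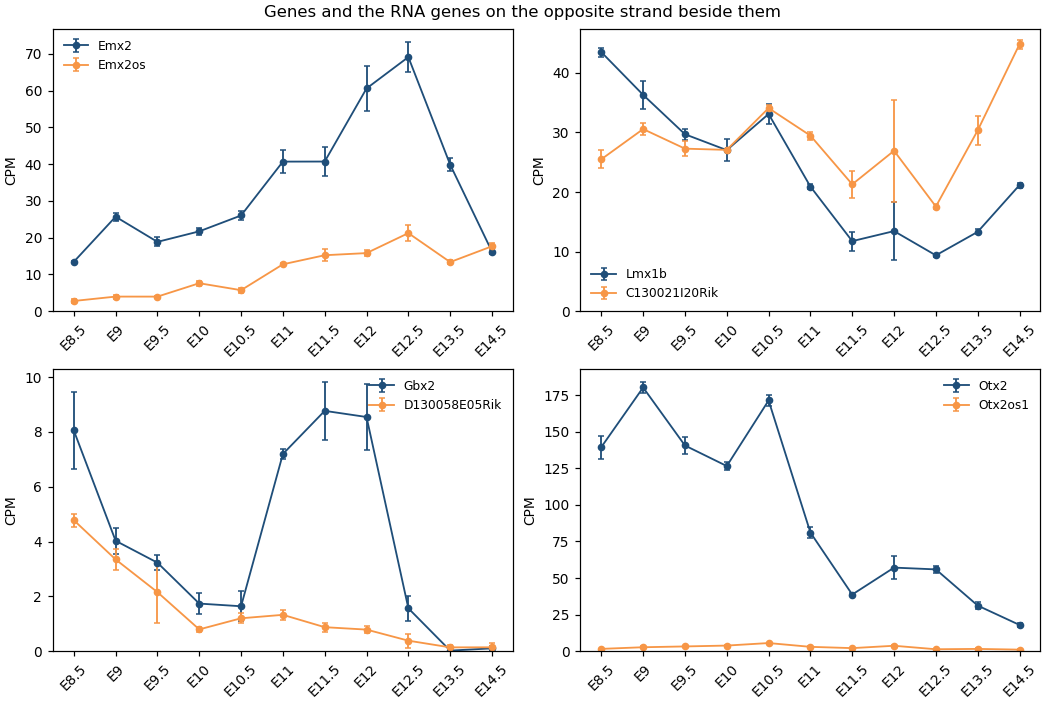
Mean level (CPM, vertical axes from 0; bars are 1 SD of 3 libraries) by labelled stage of Emx2, Lmx1b, Gbx2 and Otx2 in dark blue and of the RNA gene on the opposite strand beside each in orange. Emx2os reaches the level of Emx2 at E14.5, C130021I20Rik is at 44.8 CPM and Lmx1b at 21.2 CPM at E14.5, and D130058E05Rik lacks the second period of Gbx2.

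Set against E8.5, most of this set was lower at E14.5, though not absent. Lmx1b, Otx2, Emx2 and En1 still averaged 21.2, 17.9, 16.2 and 7.01 CPM there, while En2, Gbx1 and Gbx2 averaged 0.231, 0.277 and 0.0992 CPM. Of the 10 genes, 9 were lower and 1 was higher at E14.5, where 33.5% of all genes tested were lower, 41.1% were higher and 74.6% passed in either direction. The median log2 fold change of the 10 genes was -2.65, beside 0.16 over all genes tested. The log2 fold change was largest for En2, at -8.16 ± 0.24 (adjusted p = 2.11e-22), and for Gbx2, at -6.22 ± 0.36 (adjusted p = 1.17e-15), while Lmx1b and Emx1 fell by 1.04 ± 0.14 and 1.15 ± 0.26. Emx2 was the gene that was higher, by 0.27 ± 0.09 (adjusted p = 0.00929). This small difference did not pass with no filter on low counts (adjusted p = 0.0573) or with the gene length trend removed, where it was 0.03 (adjusted p = 0.783).

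At E10.5 against E8.5, 5 of the 10 genes rose and 4 fell, where 28.2% of all genes tested rose, 21.3% fell and 49.5% passed in either direction. Those that rose were Emx1, 4.82-fold (adjusted p = 3.48e-11), Lmx1a, 2.26-fold (adjusted p = 6.20e-09), Emx2, 1.94-fold, Otx1, 1.70-fold and Otx2, 1.23-fold. The rise of Otx2 did not pass without replicate a of E8.5 (adjusted p = 0.0621). Those that fell were Gbx2, by 2.29 ± 0.23 on the log2 scale (adjusted p = 1.55e-09), En1, by 1.70 ± 0.14 (adjusted p = 1.50e-11), Gbx1, by 1.63 ± 0.28, and Lmx1b, by 0.39 ± 0.13. The fall of Lmx1b did not pass without replicate b of E10.5 (adjusted p = 0.0582). En2 had a log2 fold change of -0.12 ± 0.14 and did not pass (adjusted p = 0.498), while its paralog En1 fell. That difference between the paralogs was not tested.

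Between E12.5 and E10.5 the Emx genes were the 2 of the 10 that rose, 7.96-fold for Emx1 (adjusted p = 3.46e-16) and 2.66-fold for Emx2 (adjusted p = 3.61e-14). A further 6 fell, where 18.8% of all genes tested rose, 17.2% fell and 35.9% passed in either direction. En2 fell by 9.62 ± 0.29 on the log2 scale, a fitted value that rests on 4 counts at E12.5. En1 fell by 1.91 ± 0.16, Lmx1b by 1.82 ± 0.14, Otx2 by 1.62 ± 0.08 and Lmx1a by 0.48 ± 0.12. Gbx1 fell by 1.17 ± 0.36, a call that was lost without replicate c of E12.5 (adjusted p = 0.0793). Otx1 and Gbx2 had log2 fold changes of -0.21 ± 0.09 and -0.07 ± 0.27 and did not pass. When the E11.5 libraries stood in for the E12.5 ones, Gbx1 and Gbx2 were instead higher than at E10.5, by 1.94 and 2.42 on the log2 scale. The direction of the Gbx genes in this window thus depends on the stage at which it is closed.

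Between E14.5 and E12.5 En1 and Lmx1b rose and 6 of the 10 genes fell, where 25.3% of all genes tested rose, 28.6% fell and 53.8% passed in either direction. Emx1 fell by 6.41 ± 0.20 on the log2 scale (adjusted p = 1.76e-21), Otx1 by 4.01 ± 0.11, Gbx2 by 3.85 ± 0.44, Lmx1a by 2.51 ± 0.14, Emx2 by 2.09 ± 0.09 and Otx2 by 1.64 ± 0.09. Gbx1 was at 0.277 ± 0.124 CPM at E14.5 and 0.550 ± 0.272 CPM at E12.5 and did not pass (adjusted p = 0.0625), though it passed without replicate c of E12.5 (adjusted p = 0.0132) or without replicate b of E14.5 (adjusted p = 0.0470). In the same window 11 of 15 genes of frontal mesenchyme, bone and dermis rose, and all 8 genes of the neural tube in general fell. Whether the rise of En1 and Lmx1b belongs to the first of these tissues was not tested.

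**Figure D3:**
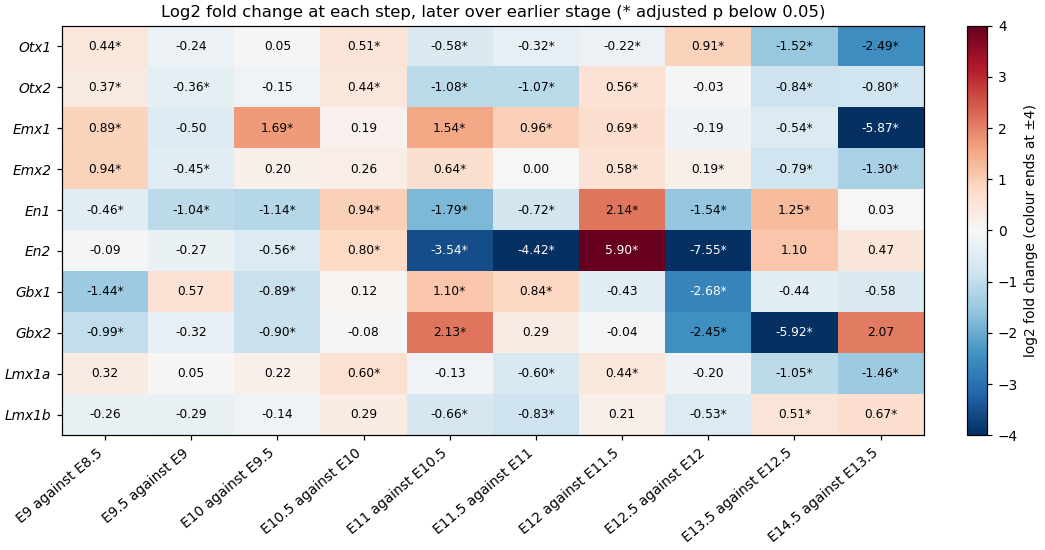
Log2 fold change of each gene (rows) at each of the 10 successive steps, the later over the earlier stage (columns), with red higher, blue lower and the colour ending at ±4; an asterisk marks an adjusted p below 0.05 by edgeR's quasi-likelihood test. En2 has -3.54 and -4.42 at the steps to E11 and E11.5, 5.90 at the E12 step and -7.55 at that to E12.5, and Emx1 has -5.87 at the last step.

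Over the 10 successive steps, 65 of 100 tests of a gene at a step passed, 27 higher and 38 lower. Of all genes tested, the share that passed ranged by step from 8.46% to 68.8%. At E9 against E8.5, 4 genes rose (Emx1, Emx2, Otx1 and Otx2) and 3 fell (En1, Gbx1 and Gbx2), where 2515 of the 20073 genes tested rose, 7.66% fell and 20.2% passed in either direction. At E9.5 against E9, 3 genes fell (Otx2, Emx2 and En1) and the other 7 did not pass, where 11.1% of all genes rose, 11.7% fell and 22.8% passed in either direction. At E10 against E9.5, Emx1 rose and the 4 En and Gbx genes fell (of all genes, 2905 rose, 12.3% fell and 26.7% passed in either direction). At E11.5 against E11, 2 rose (Emx1 and Gbx1) and 6 fell (of all genes, 10.7% rose, 12.3% fell and 23.0% passed in either direction). At E13.5 against E12.5, 2 rose (En1 and Lmx1b) and 6 fell (27.2%, 25.9% and 53.1% of all genes in the same order), and at E14.5 against E13.5, 1 rose (Lmx1b) and 5 fell (24.0%, 26.9% and 50.9%). The falls of Gbx1 and Gbx2 at the first of these steps were 1.44 ± 0.28 and 0.99 ± 0.21 on the log2 scale. Several of these step calls rest on 1 library. That of En1 at E9 against E8.5 was lost without replicate b of E9 (adjusted p = 0.0639), and that of Gbx2 at E10 against E9.5 without replicate b of E10 (adjusted p = 0.0509). At E11.5 against E11 the fall of Otx1 was lost without replicate b of E11 (adjusted p = 0.0788) or replicate c of E11.5 (0.0507), that of En1 without replicate a of E11 (0.0537) or replicate b of E11.5 (0.0706), and the rise of Gbx1 without replicate a or b of E11 or replicate a or c of E11.5 (up to 0.0617). With library totals alone as the scaling, the falls of Otx2 at E9.5 against E9 (adjusted p = 0.0577), of Gbx1 at E10 against E9.5 (0.0557) and of Otx1 at E11.5 against E11 (0.263) did not pass either. The step at which most genes moved was E11 against E10.5. There 4 of the 10 genes rose and 5 fell, where 19.2% of all genes tested rose, 17.3% fell and 36.5% passed in either direction. Emx1, Emx2, Gbx1 and Gbx2 rose, and Otx1, Otx2, En1, En2 and Lmx1b fell, leaving Lmx1a at -0.13 ± 0.12. At the step before, E10.5 against E10, 5 genes rose (Otx1, Otx2, En1, En2 and Lmx1a) and the other 5 did not pass, where 5.73% of all genes tested rose, 2.74% fell and 8.46% passed in either direction. En1 rose by 0.94 ± 0.15 on the log2 scale at that step and fell by 1.79 ± 0.16 at the next.

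At E12 against E11.5, 6 of the 10 genes rose and 1 fell, where 33.3% of all genes tested rose, 35.6% fell and 68.8% passed in either direction. En2 rose by 5.90 ± 0.27 on the log2 scale (adjusted p = 2.62e-16) and En1 by 2.14 ± 0.18 (adjusted p = 3.74e-11). Lmx1a was among those that rose, a call that was lost without replicate a of E12 (adjusted p = 0.0546). With library totals alone as the scaling, 3 of the 6 rises did not pass: that of Otx2 was 0.20 on the log2 scale (adjusted p = 0.105), that of Emx2 0.21 (adjusted p = 0.0794) and that of Lmx1a 0.05 (adjusted p = 0.697). The fall of Gbx1 then passed (adjusted p = 0.00624). Under that scaling 31.0% of the calls over all genes were higher ones, in place of 48.3%, and the median of all genes moved by -0.37. By TPM, which was not tested, 4 of the 6 had a lower mean at E12 than at E11.5. These were Otx2 (31.7 against 38.9), Emx1 (99.9 against 117.5), Emx2 (47.1 against 57.5) and Lmx1a (13.9 against 19.3). En2 (10.2 against 0.295) and En1 (7.46 against 3.08) were higher at E12 by TPM as well. Otx1 was the gene that fell (adjusted p = 0.0420), and its call was lost without any 1 of 5 of the 6 libraries compared, at an adjusted p of up to 0.152 without replicate b of E12. That call was also lost with the gene length trend removed, where the log2 fold change was -0.05 (adjusted p = 0.585). At E12.5 against E12 En2 and En1 fell again, En2 by 7.55 ± 0.32 and En1 by 1.54 ± 0.17, among 5 genes that fell and 2 that rose, where 31.0% of all genes tested fell, 32.0% rose and 63.0% passed in either direction. Emx2 was at 69.1 ± 4.15 CPM at E12.5 and 60.6 ± 6.24 CPM at E12, a difference that passed (adjusted p = 0.0471) but was lost without any 1 of several libraries, at an adjusted p of up to 0.191 without replicate a of E12.

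Passing over both of these stages, E12.5 against E11 gave 3 of the 10 genes higher and 5 lower, where 6.59% of all genes tested were higher and 6.94% were lower. This comparison was added with the values known. Emx1 was 2.74-fold higher, Emx2 1.70-fold and Otx1 1.29-fold. En2 fell by 6.07 ± 0.37 on the log2 scale, Gbx1 by 2.27 ± 0.33, Gbx2 by 2.21 ± 0.23, Lmx1b by 1.16 ± 0.15 and Otx2 by 0.54 ± 0.08. En1 had -0.12 ± 0.18 and Lmx1a -0.35 ± 0.12, and neither passed.

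Levels of different genes are compared here as CPM per kilobase of exonic length. The sum of the 10 genes was 99.4 ± 2.48 CPM per kilobase at E8.5, 110.2 ± 1.29 at E10.5, 100.6 ± 2.17 in the E12.5 libraries and 19.1 ± 0.510 in those of E14.5. Up to E12.5 it was lowest at E11.5, with 73.4 ± 1.09, and its makeup changed throughout. The Otx genes held 44.2% ± 1.1 of it at E8.5, 53.6% ± 0.13 at E10.5, 29.0% ± 0.58 in the E12.5 libraries and 27.3% ± 0.83 in those of E14.5. The Emx genes held 5.52% ± 0.041 at E8.5, 12.3% ± 0.64 at E10.5, 61.8% ± 0.95 in the E12.5 libraries and 30.6% ± 1.2 in those of E14.5. The En genes held 33.3% ± 0.86, 20.2% ± 0.60, 1.11% ± 0.059 and 14.3% ± 1.1 at these 4 stages, and at E14.5 nearly all of their share was En1. The Lmx1 genes held 27.2% ± 1.0 at E14.5 and 12.1% ± 0.46 at E8.5, and the Gbx genes did not exceed the 7.40% ± 0.48 of E11.5.

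**Figure D4:**
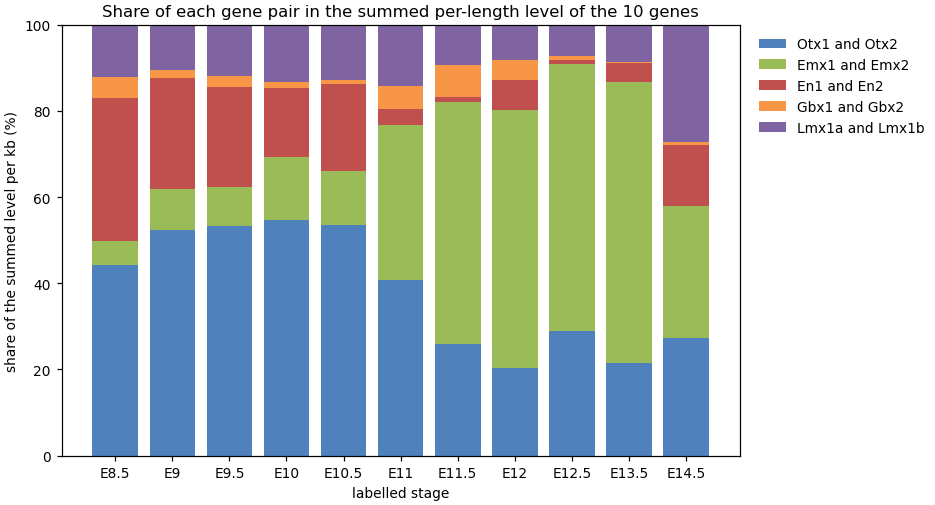
Share of each pair of paralogs in the summed level per kilobase of the 10 genes (percent, vertical axis 0 to 100; bars are means of 3 libraries) by labelled stage. The Emx share is 65.4% at E13.5 and 5.52% at E8.5, the En share is 1.11% at E12.5 and 33.3% at E8.5, and the Lmx1 and En shares are larger again at E14.5.

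The order of the genes changed with the stage. At E8.5 it ran Otx2, En2, En1, Otx1 and Lmx1b, followed by Emx2, Gbx2 and Lmx1a, whose neighbouring values overlapped between libraries, and by Gbx1 and Emx1, which overlapped as well. At E10.5 Otx2 led with 40.6 CPM per kilobase, and Otx1 (18.4) and En2 (18.1) overlapped behind it. At E11 Emx1, Emx2 and Otx1, at 14.3, 13.6 and 12.3 CPM per kilobase, overlapped as neighbours behind Otx2. At E12.5 no neighbours overlapped, and the order was Emx1, Emx2, Otx1, Otx2, Lmx1a, Lmx1b, En1, Gbx2, Gbx1 and En2. At E14.5 Emx2 led with 5.39 CPM per kilobase, Lmx1b (4.25) and Otx2 (4.24) overlapped behind it, En1 followed with 2.67, and Gbx1, En2 and Gbx2 were all below 0.08.

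Genes known to mark brain regions were set beside the 10 genes in lists. Of 15 forebrain genes, which include Lhx2 and Tbr1, 9 rose and 5 fell at E12.5 against E10.5. Of all genes tested, 18.8% rose and 17.2% fell there. The forebrain list had a median log2 fold change of 0.68 beside 0.03 over all genes tested. Tbr1, a gene of early cortical neurons, averaged 78.2 CPM at E12.5 and 4.95 CPM at E10.5. The ventral forebrain gene Nkx2-1 fell in the same window, to 5.22 CPM at E12.5 against 43.2 CPM at E10.5. Emx1 and Emx2 rose in the same window as Lhx2 and Tbr1, and Nkx2-1 was 1 of the 5 forebrain genes that fell. The list was not divided into dorsal and ventral genes, so a difference between the 2 was not tested. At E14.5 against E12.5, 13 of the 15 forebrain genes fell and the other 2 did not pass, with a median of -3.82 beside -0.03. In that window 28.6% of all genes tested fell. Lhx2 averaged 31.1 CPM at E14.5 and 439 CPM at E12.5.

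Of 9 genes of the midbrain-hindbrain boundary, all 9 fell at E11 against E10.5, with a median log2 fold change of -1.54 beside 0.02. At that step En2 and En1 fell, Gbx1 and Gbx2 rose, and 17.3% of all genes tested fell. At E12 against E11.5, 7 of the 9 rose and the other 2 did not pass, with a median of 2.47 beside -0.08. There 33.3% of all genes tested rose. Wnt1, the boundary signal, averaged 3.72 CPM at E12 and 0.270 CPM at E11.5, and Pax5 averaged 3.19 CPM and 0.263 CPM. Fgf8, the signal of the isthmus and of the anterior forebrain, averaged 10.4 ± 4.14 CPM at E12 and 1.62 CPM at E11.5. At E12.5 against E12, 6 of the 9 fell and 2 rose, where 31.0% of all genes tested fell and 32.0% rose. Wnt1 had no count at E12.5. The higher level of En2 and En1 at E12 was thus shared by other boundary genes. The 9 genes of the list summed to 34.2 ± 2.40 CPM at E11.5, 135 ± 9.74 CPM at E12 and 83.8 ± 3.42 CPM at E12.5. Wnt1, Pax5 and Fgf8 were a small part of the sum at E12, most of which came from the other genes of the list. At E12.5 the sum was still above that of E11.5, though Wnt1 had no count and En2 only 4 counts there. The neural tube list moved the same way, at 1197 ± 16.2, 2184 ± 129 and 1509 ± 61.0 CPM at these 3 stages. The part of general neural content in the level of En2 at E12 was not tested.

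Of 8 midbrain genes, 6 fell and 1 rose at E12.5 against E10.5, with a median of -2.96 beside 0.03. In that window 17.2% of all genes tested fell and 18.8% rose. Dmbx1 averaged 1.94 CPM at E12.5 and 40.1 CPM at E10.5, and Tal2 2.71 CPM and 50.9 CPM. The list summed to 116 ± 7.21 CPM at E8.5, 172 ± 5.07 CPM at E10.5 and 36.8 ± 0.441 CPM at E12.5. Otx2 and En2, which the midbrain expresses, fell in the same window. Foxa2, a floor plate gene, had no count at E12.5 and averaged 18.4 CPM at E10.5, while Lmx1a, which shares the midbrain floor plate with it but is also found at the dorsal midline, averaged 18.3 CPM at E12.5 and 25.4 CPM at E10.5.

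The hindbrain list, 11 genes of which 10 were tested, had a sum between 6.95 ± 0.662 CPM at E12.5 and 29.0 ± 1.05 CPM at E13.5. Of its genes 2 rose and 2 fell at E11 against E10.5, the step at which Gbx1 and Gbx2 rose. Of all genes tested, 19.2% rose and 17.3% fell at that step. At E11.5, where Gbx2 was highest, the list summed to 13.2 ± 1.81 CPM and Atoh1 had no count. Of the 10 genes tested, 3 rose, 2 fell and 5 did not pass at E11.5 against E11. The shares over all genes tested were 10.7% higher and 12.3% lower at that step. At E14.5 against E12.5, 9 of the 10 tested rose, where 25.3% of all genes tested rose, while Gbx2 fell. The median log2 fold change of the 10 was 4.85 beside -0.03 over all genes tested. The Hox genes of this list are also expressed in other tissues, and their source was not tested. The roof plate, cortical hem and choroid plexus list covers tissues in which Lmx1a is also expressed. Of its 11 genes 7 rose and 4 did not pass at E12.5 against E10.5, while Lmx1a fell by 0.48 ± 0.12. In that window 18.8% of all genes tested rose, and the median log2 fold change of the list was 0.70 beside 0.03. Ttr, the transthyretin of the choroid plexus, averaged 179.5 CPM at E12.5 and 0.0342 CPM at E10.5. At E14.5 against E12.5, 10 of the 11 fell, where 28.6% of all genes tested fell, and so did Lmx1a.

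**Figure D5:**
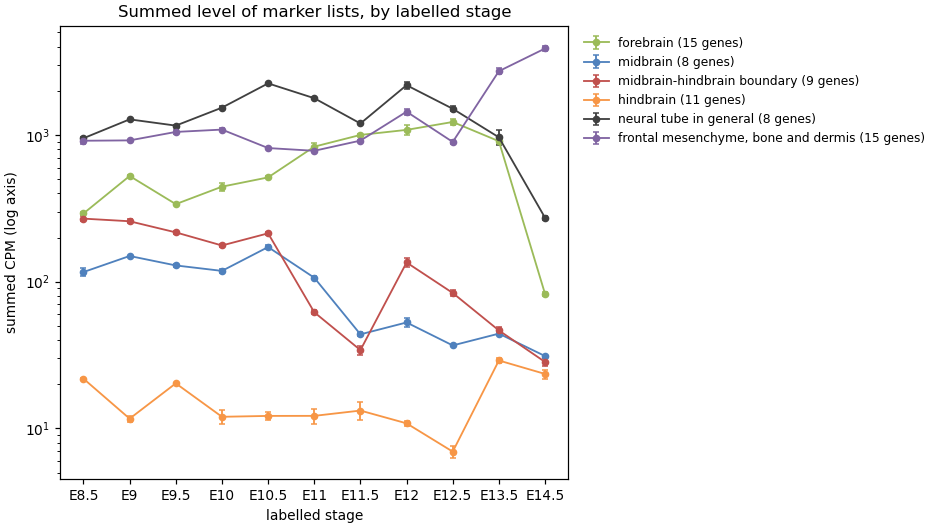
Summed level of 6 lists of marker genes (CPM, log axis; bars are 1 SD of 3 libraries) by labelled stage. The forebrain sum is 82.55 CPM at E14.5 and 1226 CPM at E12.5, the boundary sum is 135 CPM at E12 and 34.2 CPM at E11.5, and the sum of frontal mesenchyme, bone and dermis is 3884 CPM at E14.5.

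Frontal mesenchyme, bone and dermis genes summed to 913 ± 45.5 CPM at E8.5, 896 ± 32.3 CPM at E12.5 and 3884 ± 134 CPM at E14.5. Of the 15 genes, 13 were higher and 2 were lower at E14.5 against E8.5. The shares over all genes tested were 41.1% higher and 33.5% lower. The 15 genes had a median log2 fold change of 1.45 beside 0.16 over all genes tested. Twist2, Prrx1 and Runx2 were among those that were higher, and Crabp1 was lower. Over the same comparison 7 of 8 genes of the neural tube in general were lower and 1, Fabp7, was higher. The meninges list summed to 249 ± 7.05 CPM at E14.5 and 184 ± 6.397 CPM at E8.5, and the eye and ear list to 25.4 ± 1.27 CPM at E14.5 and 18.0 ± 1.23 CPM at E8.5. The part of changing amounts of brain, mesenchyme and other tissue in the levels of the 10 genes was not tested.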

How the data were processed

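RNA-seq of mouse frontal bone tissue was analysed for 33 libraries at 11 stages. The deposited values are raw counts per gene, neither normalized nor pooled, per the file headers. The deposited table also gives each gene's exonic length. The submitters' processing notes name cutadapt 1.9.1, HISAT2 2.0.1, HTSeq 0.6.1 and the build GRCm38, while annotation release and strand setting are not given in the sources used. Of the 55401 genes, 55141 had a symbol in GENCODE M21. Columns were tied to stages by name; their letters a, b and c name libraries and could not be tied to the labels' replicate numbers.

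Counts were filtered by edgeR's filterByExpr given the stages (20073 genes kept), scaled with TMM factors (0.797 to 1.17) and fitted with edgeR 4.0.16 in R 4.3.3, 1 mean per stage, with 22 residual degrees of freedom. Quasi-likelihood F-tests were adjusted by Benjamini-Hochberg over all genes tested, with a threshold of 0.05. Standard errors are approximate, derived from the log2 fold change and its F. Folds are fitted values, later over earlier stage. The fit was tested on simulated data. Alternatives used DESeq2 1.42.0, other scalings, filters and lengths, a replicate block and each library left out. Intervals of count ratios are exact 95% intervals and cover counting error only. Within stages, libraries differed by more than sampling noise (chi-square per gene of 1.85 or more).

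All 10 genes are described; for each, the 3 tested, named protein-coding genes (at 1 CPM or more in some stage mean) with the highest correlation of log2 CPM (prior count 2) over 33 libraries are named. The 10 genes, the marker lists and the comparisons were chosen with earlier results of these data known.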

Additional observations from a re-analysis of the deposited data

How the results depend on the processing

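The number of the 10 genes that differed held under all alternatives within 1.5 times. At E14.5 against E8.5 it was 10, and 9 to 10 under other settings and 10 with each library left out in turn. At E10.5 against E8.5 it was 9 (8 to 10; 8 to 9 leaving out libraries), at E12.5 against E10.5 8 (8 to 10; 7 to 9), at E14.5 against E12.5 8 (8 to 9; 8 to 9), and over the successive steps 65 of 100 (61 to 70; 62 to 69). Of 5738 fold changes recomputed, 5627 kept their direction and side of the threshold, 60 no longer passed, 49 newly passed and 2 reversed. These are refits of the same 140 values of a gene in a comparison, many with only 1 library left out. Of the 140 values, 36 changed in at least 1 setting. Under other scalings, 56 of 220 recomputed stage means moved by 1 SD or more. When the E11.5 libraries stood in for the E12.5 ones, the log2 fold change against E10.5 was 1.94 for Gbx1 and 2.42 for Gbx2; the labels alone set which libraries stand for E12.5.

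With library totals alone as the scaling, the median of all genes moved by 0.43 at E14.5 against E8.5 and by 0.17 at E10.5 against E8.5, and the share of higher calls was 71.3% in place of 55.0% and 72.5% in place of 57.0%. With the gene length trend removed these shares were 47.4% and 40.4%. Under totals alone the share was also 68.3% in place of 52.2% at E12.5 against E10.5, 58.3% in place of 46.9% at E14.5 against E12.5 and 65.7% in place of 50.9% at E12.5 against E12, where the medians moved by 0.12, 0.14 and 0.26. Under totals alone Lmx1b no longer passed at E10.5 against E8.5 (adjusted p = 0.256), and with the length trend removed Otx2 did not (adjusted p = 0.145). Otx1 at E12.5 against E10.5 newly passed in a fit of the 6 libraries compared (adjusted p = 0.0209) and in one without E12 (adjusted p = 0.0218), the second chosen after seeing the data. En2 at E10.5 against E8.5 newly passed with the 6 libraries compared (adjusted p = 0.0211).

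With the replicate block on the column letter, 64 of 100 step tests passed in place of 65, and the counts of the other comparisons were the same; Emx2 at E12.5 against E12 was the call lost (adjusted p = 0.0502). The letters did not pair the libraries: of 42 same-letter pairs, 3 deviated together with a correlation over 0.1, and the samples share only a letter. Depth limits the Gbx genes and late En2, with 1 to 14 counts per stage in the lowest groups.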

Other observations

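The genes whose levels followed each of the 10 most closely were named by Pearson's r of log2 CPM over the 33 libraries, among 14695 protein-coding genes. These values describe the course over stages, which all libraries of a stage share, and carry no test. En2 was closest to Wnt1, the boundary signal (r = 0.975), then to Gata1 (0.961) and Dmbx1 (0.9503), a midbrain gene. Emx1 was closest to Rnd2 (0.970), which acts in migrating cortical neurons, then to Lhx2 (0.961) and Scrn1 (0.961), and Emx2 to Lhx2 (0.934), Emx1 (0.933) and Scrn1 (0.929). Gbx1 and Gbx2 were each other's nearest gene (0.880), followed by Cd24a (0.809) and Lin7c (0.794) for Gbx1 and by Olig3 (0.849) and Pbx3 (0.838) for Gbx2.

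Otx1 was closest to the neural progenitor gene Msi1 (0.979), to Wnt8b (0.975) and to Rfx4 (0.972), and Otx2 to Igdcc3 (0.986), Usp44 (0.977) and Dtx4 (0.973). Lmx1a was closest to Barhl2 (0.968), Arvcf (0.965) and the Notch ligand gene Dll1 (0.964). En1 was closest to Tmed10 (0.949), Htra2 (0.948) and Ybx3 (0.944), and Lmx1b to Spon1 (0.931), Greb1l (0.925) and Myrf (0.922).

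In windows of 250 bases before to 50 after the RefSeq starts, which 7 of the 10 genes have in the table used (build GRCm38.p6; Otx1, En2 and Gbx1 had no entry), the homeodomain core TAATTA was found in the Emx2 window and in 2 of the 4 Otx2 windows. TAATCC, the motif that Otx proteins bind, was found in 1 Otx2 window, which holds TAATTA as well. Searched on both strands, these letters occur in 5.29% and 7.06% of 32851 such windows.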
